A study of Mus musculus with 36 samples.

Results

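The genes described here are 9 interferon response genes, Nmi, Ifit1, Ifit3, Isg15, Irf1, Irf7, Irf9, Bst2 and Oasl2, out of 40205 features counted in each library. The set was chosen by the EV:cell ratio of Nmi, its level in extracellular vesicles (EVs) over that in the cells that secreted them, which was higher at 120 mg/dL ethanol than in controls in these same libraries. The other 8 genes were added as genes of the same pathway. The values of Nmi at that dose are therefore given as a description with no test. Tests of Nmi at 320 mg/dL reuse the control libraries that entered this choice. Those between EVs and cells, sexes or cultures also hold the 120 mg/dL libraries, so no test of Nmi is independent of the choice. All 9 symbols were present in the files. RNA sequencing was done on neurosphere cultures of C57BL/6J fetal mouse neural stem cells (NSCs), taken from the dorsal telencephalon at gestational day 12.5, and on their EVs. The labels give the genotype as WT, the study's methods name the mice C57BL/6J (Ai14), a line that carries a Cre-dependent reporter, and all groups share this background. Tissue from the littermates of a pregnancy was pooled by sex, so 3 pregnancies (sets 3, 4 and 5) gave 3 female cultures (3F, 4F and 5F) and 3 male cultures (3M, 4M and 5M). Each culture, at passage 7 to 10, was kept for 5 days at 0 (control), 120 or 320 mg/dL ethanol, and 4 flasks made 1 sample. Each culture and dose gave 1 EV library, from an ultracentrifuged pellet of the medium, and 1 cell library, which makes 36 libraries with 6 at each dose and location. Littermate tissue was pooled, so a culture stands for the fetuses of 1 sex in 1 pregnancy and not for a single animal, and both doses were compared with the same control libraries.

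Interferons are secreted proteins that bind paired receptors on the cell surface and switch on kinases of the JAK family. The kinases activate transcription factors, which with IRF9 bind an interferon-stimulated response element (ISRE) in the promoters of the responding genes, while interferon gamma also acts through a gamma-activated sequence (GAS). Neural stem cells are known to keep some interferon-stimulated genes on at a low level without infection, and in cells that do respond the products tag proteins, trap or degrade viral material and feed back on the pathway. NMI is an interferon-induced protein that binds MYC family proteins. IRF1, IRF7 and IRF9 are transcription factors of the interferon regulatory factor family. IFIT1 and IFIT3 bind foreign RNA as a complex, ISG15 is a ubiquitin-like tag, BST2 (tetherin) holds budding viruses at the membrane, and OASL2 is a relative of the oligoadenylate synthetases.

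Promoters are shown for the members whose upstream sequence carries the core letters of either element, because these elements define the pathway. RefSeq promoter sequences (build GRCm38.p6, while the counts rest on mm39) were found for all 9 genes, and the 250 bases before each start were searched on both strands. The ISRE core was taken as GAAA, any 2 bases and GAAA, and the GAS core as TTC, any 3 bases and GAA. The first was found in 4 of the 9 genes (Isg15, Bst2, Ifit3 and Ifit1), against 978 of all 32851 promoters (2.98%). The second was found in Irf1 and Bst2, against 2306 promoters (7.02%). A further Irf1 promoter held neither core. Members are counted by gene, with a match in any of its promoters, and the background by promoter, so the shares are not in the same unit. The stretches follow as they read from 5′ to 3′ on the strand of the gene, with all matched letters in capitals.
Isg15, chr4:156200856-156200915, minus strand: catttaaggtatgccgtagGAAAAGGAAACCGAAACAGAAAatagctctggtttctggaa
Bst2, chr8:71537568-71537627, minus strand: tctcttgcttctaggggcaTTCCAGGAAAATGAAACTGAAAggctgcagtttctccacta
Ifit3, chr19:34583365-34583424, plus strand: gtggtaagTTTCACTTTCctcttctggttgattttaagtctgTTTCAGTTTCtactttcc
Ifit1, chr19:34640770-34640828, plus strand: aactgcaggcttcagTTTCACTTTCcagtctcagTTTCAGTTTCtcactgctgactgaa
Irf1, chr11:53769899-53769957, plus strand: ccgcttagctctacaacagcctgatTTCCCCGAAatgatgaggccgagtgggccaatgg
The Isg15 stretch holds 3 overlapping ISRE cores, those of Ifit3 and Ifit1 hold 2 separate cores each in the reverse orientation, and in Bst2 a GAS core overlaps the first of 2 ISRE cores. No match to either core was found in the windows of Nmi, Oasl2, Irf7 and Irf9, which says only that these letters are absent there.

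Library totals were 26.6 to 55.3 M counts in cells (median 37.8 M, where M is 1e6) and 0.959 to 5.51 M in EVs (median 3.83 M), and no pair of libraries held identical counts. The neural stem cell markers summed to 1736 to 3664 counts per M counts of the library (CPM) in cells and 470 to 1168 CPM in EVs, with 7 of 8 above 0 (Sox2 was listed at 0). Microglia markers, of which P2ry12 was at 0 and 9 of 10 had counts, summed to 0.898 to 1.48 CPM in cells. In EVs they summed to 1.05 to 16.4 CPM, and neuron markers ran from 13.8 to 135 CPM in cells and from 24.9 to 82.5 CPM in EVs. Single genes weighed heavily in the neuron sums. Rbfox3 alone ran from 3.30 to 121 CPM in cells (median 6.01). Tbr1 (mean 22.8 CPM) and Rbfox3 (13.7 CPM) were the largest parts in EVs. CPM values here are counts scaled to the library after TMM normalization over all 36 libraries, and ± gives the SD unless SE is named. A count of 3 corresponded to 0.0382 to 0.127 CPM in cells and to 0.648 to 4.09 CPM in EVs, so low genes could be followed in cells but hardly in EVs. These floors, and the Poisson intervals given for EV counts, cover counting error only.

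The members were expressed at very different levels in NSCs. Per kilobase of exon, Nmi was highest in cells at 1.63 ± 0.326 CPM (n = 18), followed by Irf1 at 1.09 ± 0.489 and Irf9 at 0.774 ± 0.170 CPM per kilobase. Bst2 was at 0.531 ± 0.295 CPM per kilobase. Isg15 at 0.179 ± 0.145, Ifit3 at 0.153 ± 0.0971 and Irf7 at 0.141 ± 0.0353 CPM per kilobase did not differ beyond their spread, and Oasl2 was lowest at 0.0484 ± 0.0308. In EVs Nmi was again highest at 0.829 ± 0.362 CPM per kilobase, followed by Irf9 at 0.352 ± 0.209 and Irf1 at 0.289 ± 0.164, with the other 5 detected members between 0.0624 and 0.144. Nmi and the transcription factors Irf1 and Irf9 stood above the effectors in both. The order is a description, since neighbours in it overlapped library by library. It also depends on the length used, which covers all annotated exons of a gene over all its transcripts. Without division by length, Irf1 was highest in cells at 5.11 CPM, followed by Irf9 at 4.49 and Nmi at 3.86. Isg15 was then the lowest detected member at 0.140 CPM, and in EVs Irf9 (2.04 CPM) stood above Nmi (1.96 CPM).

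Ifit1 (chromosome 19, 34618271 to 34632174 on GRCm39, plus strand) was listed at 0 in all 36 libraries. Its neighbours on chromosome 19 did have counts, with 1 to 47 reads of Ifit3 and 42 to 426 reads of Ifit2 per cell library. In the RefSeq annotation Ifit1 lies inside the span of Ifit1bl1, which had 0 to 53 reads per cell library, and the other genes of that span that were looked up, Ifit3b and Ifit1bl2, were also at 0. Sox2, inside Sox2ot, and Xist, inside Tsix, were at 0 in the same way, Xist also in all libraries of female cultures. Whether this nesting set the zeros was not tested, and the 0 of Ifit1 is not read as a level. On the same build, Nmi (chromosome 2, 51838450 to 51863506, minus strand), Ifit3 (chromosome 19, 34560899 to 34566443, plus strand), Bst2 (chromosome 8, 71986895 to 71990114, minus strand) and Oasl2 (chromosome 5, 115034997 to 115050295, plus strand) overlap no other annotated gene. Irf1 (chromosome 11, 53660812 to 53669200), Irf7 (chromosome 7, 140842619 to 140846398) and Isg15 (chromosome 4, 156283883 to 156285303) overlap genes on the opposite strand, and Irf9 (chromosome 14, 55841028 to 55847812) overlaps Rnf31 on its own strand. Whether reads were assigned by strand is not given in the sources used here, so the counts of these 4 genes could hold or have lost reads shared with a neighbour.

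Nmi lay in the same range at all 3 doses in cells, while its EV values at 120 mg/dL lay mostly above those of the controls. In control cells it was at 2.41 CPM in 3F, 6.00 in 3M, 3.71 in 4F, 3.12 in 4M, 4.03 in 5F and 4.56 in 5M. The same cultures had 3.76, 3.73, 4.37, 3.19, 4.01 and 3.88 CPM at 120 mg/dL, and at 320 mg/dL they had 4.20, 3.43, 3.76, 3.50, 4.64 and 3.10 CPM. The 3 doses overlapped, and the control libraries were the most widely spread. In EVs, Nmi was at 0.932, 2.81, 1.17, 1.02, 1.14 and 2.37 CPM in controls, in the same order of cultures. With 120 mg/dL it was at 2.65, 2.73, 2.62, 1.88, 2.78 and 3.22 CPM, higher than control in 5 of 6 cultures, with 3M 0.0304 lower on the log2(CPM + 1) scale. With 320 mg/dL it was at 1.17, 3.16, 2.37, 0.859, 0.982 and 1.50 CPM, which spans the range of the controls. The summed microglia markers in EVs ran from 3.73 to 16.4 CPM in controls, from 4.82 to 15.8 CPM at 120 mg/dL and from 1.05 to 9.45 CPM at 320 mg/dL. Against the control of the same culture they were higher at 120 mg/dL in 5 of 6 cultures (4F was lower) and lower at 320 mg/dL in 5 of 6, and neuron markers were higher in 5 of 6 and 4 of 6. Their part in the EV values of Nmi was not tested. The microglia sums in EVs rested on few reads, with medians per library of 6 for Itgam, 4.5 for Csf1r and 3 for Ptprc. The other microglia markers had medians of 0 or 1 read.

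The EV:cell ratio of Nmi, which chose the gene, was 0.387 in 3F, 0.468 in 3M, 0.316 in 4F, 0.328 in 4M, 0.283 in 5F and 0.521 in 5M without ethanol. The ratio at 120 mg/dL was 0.705, 0.732, 0.598, 0.589, 0.693 and 0.829. With TMM scaling all 6 ratios at 120 mg/dL lay above all 6 controls, with means of 0.691 ± 0.0895 and 0.384 ± 0.0936 (n = 6). The lowest value at 120 mg/dL was the 0.589 of 4M and the highest control was the 0.521 of 5M. Of 19825 features with counts in every cell library and in any EV library, 0.0252% had ratios without overlap in this direction and 0.888% were higher in 6 of 6 cultures. Scaled by library totals alone, the ratios of Nmi overlapped. Culture 3M at 120 mg/dL was then at 2.09 CPM in EVs and 5.94 CPM in cells. That is a lower ratio than in 5M without ethanol, at 2.01 and 5.19 CPM. On the log2(CPM + 1) scale the ratio stayed higher at 120 mg/dL in 6 of 6 cultures and the EV level in 4 of 6. Nothing further is read from this, because the ratio was the reason for choosing Nmi. The control ratios, which the comparison at 320 mg/dL reuses, were part of that choice. The ratios at 320 mg/dL were 0.280, 0.921, 0.632, 0.245, 0.212 and 0.484 in the same order, so 3M and 4F were higher than their controls and the other 4 cultures lower (mean 0.462 ± 0.277). In edgeR's quasi-likelihood test the ratio of Nmi at 320 mg/dL had a log2 fold change of 0.12 ± 0.42 (SE) with adjusted p = 1, and 0% of the 22854 genes tested passed at that dose.

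**Figure D1:**
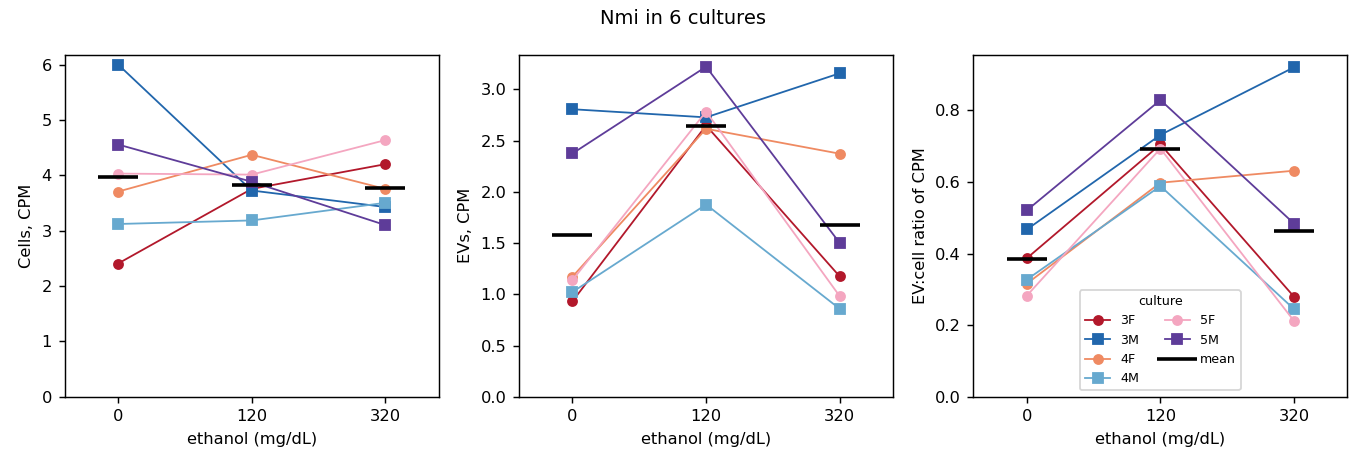
Nmi in CPM in cells (left) and EVs (middle) and the EV:cell ratio of CPM (right) at 0, 120 and 320 mg/dL ethanol, with a line for each of 6 cultures, circles for female and squares for male cultures, and a black bar for the mean. With TMM scaling the ratio at 120 mg/dL lay between 0.589 and 0.829 against 0.283 to 0.521 in controls, while at 320 mg/dL it spread from 0.212 to 0.921.

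These EV values rested on few reads. Without ethanol 1, 9, 2, 4, 3 and 11 reads of Nmi were counted in the EV libraries of 3F, 3M, 4F, 4M, 5F and 5M. The counts at 120 mg/dL were 11, 2, 3, 7, 10 and 10, and at 320 mg/dL 4, 6, 2, 3, 2 and 4. Summed over the 6 cultures, 30 reads gave 1.75 CPM in controls (exact 95% Poisson interval 1.18 to 2.50), 43 reads gave 2.61 CPM at 120 mg/dL (1.89 to 3.52) and 21 reads gave 1.46 CPM at 320 mg/dL (0.906 to 2.24). The intervals of all 3 doses overlapped. The cell counts behind the ratio, 99 to 314 reads per library, left the EV counts as the larger source of counting error.

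The other members were at or near the counting floor in EVs. Over the 18 EV libraries, only Nmi and Irf9 had a median above 3 reads (4 and 4.5), and Irf1 had a median of 3 with 0 to 12 reads. Irf7 had 0 to 3 reads per EV library, Oasl2 0 to 4, Ifit3 0 to 3, and Isg15 and Bst2 0 or 1. Isg15 was counted in 5 of 18 EV libraries with 1 read each. In EVs only Nmi and Irf9 passed the filter on low counts, so the dose comparison there covers 2 of 9 members.

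**Figure D2:**
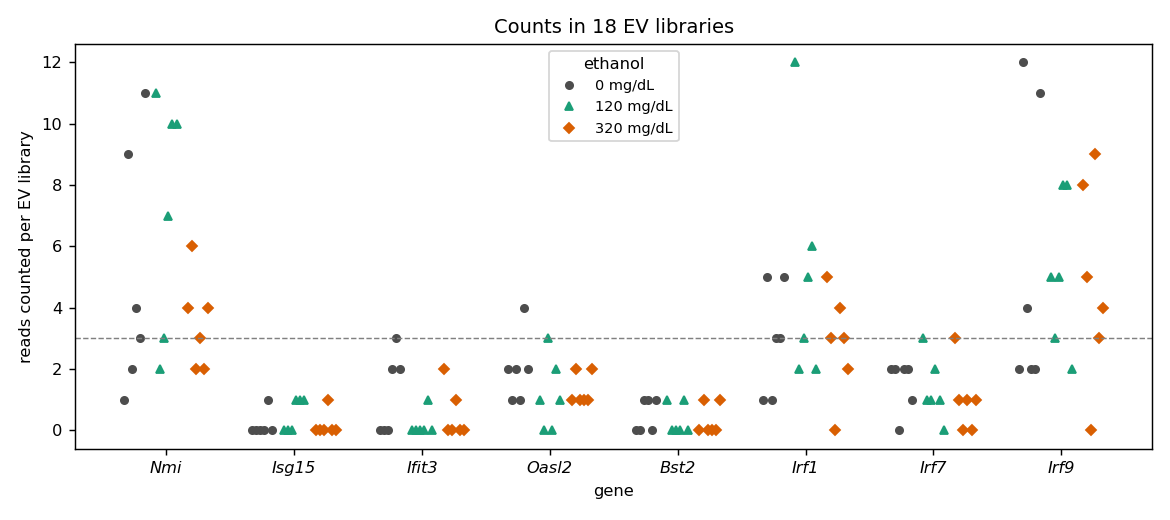
Reads counted for 8 members in each of the 18 EV libraries, 6 at each ethanol dose, with a dashed line at 3 reads. Nmi, Irf1 and Irf9 reach 11 or 12 reads in single libraries, and Isg15 and Bst2 stay at 0 or 1.

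Among the interferon regulatory factors in EVs, Irf1 was at 0.932, 1.56, 0.586, 0.767, 1.14 and 1.08 CPM in controls, in the order 3F, 3M, 4F, 4M, 5F and 5M. With 120 mg/dL it was at 2.89, 2.73, 2.62, 1.34, 1.67 and 0.644 CPM, higher in 5 of 6 cultures and lower in 5M. The exact sign change test over the 6 cultures, two-sided, whose smallest possible p is 0.03125, gave p = 0.0938 for Irf1. Of 45 such tests over members, doses and locations, the smallest p was 0.0625. Irf1 in EVs at 320 mg/dL was at 1.47, 1.58, 0, 1.14, 1.47 and 0.751 CPM, higher in 4 of 6 (exact permutation p = 0.938). Irf9 in EVs ranged from 0.511 to 3.74 CPM in controls, 0.644 to 4.36 at 120 mg/dL and 0 to 2.63 at 320 mg/dL, and its log2 fold changes were 0.27 ± 0.49 (SE, adjusted p = 0.976) and 0.20 ± 0.48 (adjusted p = 0.955). Nmi at 320 mg/dL in EVs was at −0.06 ± 0.32 (adjusted p = 0.997). Irf9 at both doses and Nmi at 320 mg/dL did not pass in EVs, where 0.00758% of 13193 genes passed at 120 mg/dL and 0.0758% at 320 mg/dL. Ifit3, which had 7 reads over the 6 control EV libraries, had 1 at 120 mg/dL and 3 at 320 mg/dL, with Poisson intervals of 0.164 to 0.840, 0.00154 to 0.338 and 0.0431 to 0.611 CPM. The Ifit3 ratio at 120 mg/dL had an unadjusted p = 0.035 and adjusted p = 1, so it did not pass. For the ratio, the 6 members tested besides Nmi did not pass at either dose, against 0.00875% of 22854 genes that passed at 120 mg/dL.

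In cells most members were slightly below control at both doses, and none passed the test. At 120 mg/dL 7 of the 8 members tested had a log2 fold change below 0 (Irf1 was the exception), with a median of −0.38 against −0.01 over all 18725 genes, of which 54.4% were below 0. Nmi, at −0.03, is counted there as a description. With 320 mg/dL 8 of 8 were below 0, with a median of −0.24 against −0.000978, and 50.2% of all genes were below 0. By culture at this dose, Nmi was higher than control in 4 of 6 and Isg15 and Oasl2 in 3 of 6. The other members tested were lower in 4 or 5 of 6. Some members varied together across the cell libraries, so the 8 signs are not separate observations. At both doses 0% of all genes passed in edgeR, although 476 had an unadjusted p under 0.05 at 120 mg/dL and 1575 at 320 mg/dL. DESeq2 called 4 and 94 genes at these doses, no member among them, though it gave Isg15 and Oasl2 no adjusted p at 320 mg/dL. Since both doses share the control libraries, the second count is not independent of the first. Against the control of the same culture, summed fibroblast markers were higher at 120 mg/dL in 5 of 6 cultures and neural stem cell markers lower in 5 of 6, and at 320 mg/dL each was lower in 4 of 6. The part of these sums in the members' values was not tested. The fibroblast sum in cells was mostly Pdgfra, at a mean of 19.2 CPM. Means of the other fibroblast markers ran from 0.0830 CPM (Lum) to 0.629 CPM (Col1a1). The sum thus follows 1 gene and is not read as an amount of fibroblasts. In whole cultures, fewer cells that express a gene and less of its RNA per cell cannot be told apart.

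Among the antiviral effectors in cells, Ifit3 was at 0.0163, 0.554, 0.871, 0.449, 0.555 and 1.04 CPM in control cells of 3F, 3M, 4F, 4M, 5F and 5M. It was at 0.123, 0.204, 0.553, 0.346, 0.401 and 0.770 CPM at 120 mg/dL, lower in every culture but 3F, where it had 1 read in the control. With 320 mg/dL it was at 0.0424, 0.133, 0.397, 0.465, 0.402 and 0.626 CPM, lower in 4 of 6. Its log2 fold changes were −0.51 ± 0.28 (SE, adjusted p = 1.00) and −0.74 ± 0.30 (unadjusted p = 0.0255, adjusted p = 0.522). The exact permutation p was 0.0938 at 120 mg/dL and 0.125 at 320 mg/dL. Bst2 was at 0.179, 1.32, 1.18, 0.293, 0.795 and 0.797 CPM in control cells and 0.215, 0.750, 0.864, 0.139, 0.669 and 0.623 CPM at 120 mg/dL, lower in every culture but 3F. Its log2 fold change at 120 mg/dL was −0.46 ± 0.16 (unadjusted p = 0.0109, adjusted p = 1.00, exact permutation p = 0.0625), and at 320 mg/dL it was −0.23 ± 0.16 (adjusted p = 0.748). Bst2 thus stayed lowest in 3F and 4M at every dose.

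Isg15, with 0 to 19 reads per cell library, ran from 0 to 0.420 CPM in control cells (median 0.169), from 0.0308 to 0.220 CPM at 120 mg/dL (median 0.110) and from 0.0190 to 0.336 CPM at 320 mg/dL (median 0.0892). Oasl2 ran from 0.114 to 0.819 CPM (median 0.327), from 0.0308 to 0.586 CPM (median 0.220) and from 0.170 to 0.458 CPM (median 0.266). The doses overlapped for both genes, and Oasl2 was lower than control at 120 mg/dL in every culture but 4M. Their log2 fold changes were −0.55 ± 0.49 and −0.65 ± 0.52 for Isg15 and −0.50 ± 0.36 and −0.24 ± 0.37 for Oasl2, all with adjusted p of at least 0.784.

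Of the transcription factors, Irf9 was at 3.51, 4.95, 3.90, 5.19, 5.79 and 6.39 CPM in control cells. At 120 mg/dL it was at 3.94, 3.99, 3.40, 5.22, 4.85 and 5.19 CPM, lower in 4 of 6. With 320 mg/dL it was at 3.23, 3.39, 2.90, 5.46, 4.66 and 4.81 CPM, lower in 5 of 6 cultures and higher in 4M. The log2 fold change of Irf9 at 320 mg/dL, −0.29 ± 0.09 (SE), had an unadjusted p = 0.00554, an adjusted p = 0.375 and an exact permutation p = 0.0625. When CPM were scaled by library totals alone, Irf9 was lower in 6 of 6 cultures at both doses and Bst2 at 320 mg/dL, with exact permutation p = 0.03125, the smallest the test can give. With that scaling the median of all genes in cells moved by −0.06 at 120 mg/dL and −0.11 at 320 mg/dL. Irf1 ran from 2.56 to 6.99 CPM in control cells, from 2.85 to 10.8 CPM at 120 mg/dL and from 2.41 to 8.55 CPM at 320 mg/dL, with medians of 4.67, 4.58 and 3.71 CPM. Irf7 ran from 0.421 to 0.722, from 0.328 to 0.678 and from 0.305 to 0.712 CPM, with medians of 0.608, 0.466 and 0.504 CPM. For both genes the doses overlapped over most of their range. Irf7 had log2 fold changes of −0.29 ± 0.16 and −0.20 ± 0.16, Irf1 of 0.11 ± 0.13 and −0.07 ± 0.13, and Nmi at 320 mg/dL of −0.05 ± 0.16 (adjusted p = 0.964).

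**Figure D3:**
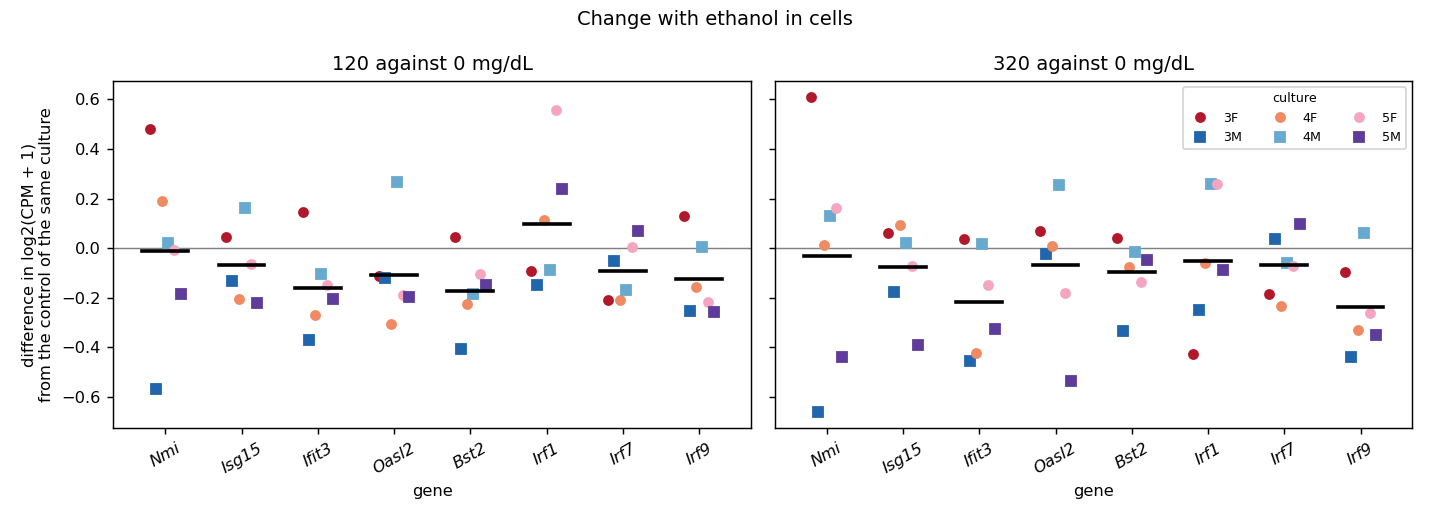
Difference in log2(CPM + 1) from the control of the same culture in cells at 120 mg/dL (left) and 320 mg/dL (right) for 8 members, with a point for each of 6 cultures and a bar for the mean. Bst2 and Ifit3 lie below 0 in 5 of 6 cultures at 120 mg/dL and Irf9 in 5 of 6 at 320 mg/dL, and Nmi spreads to both sides.

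The rest of the pathway was looked at through 72 other genes, of which 68 were in the files. They covered receptors and their kinases, transcription factors, RNA and DNA sensors, antiviral effectors, antigen presentation, inhibitors and partners of Nmi. B2m, Ifit3b and Ifi27 were listed at 0 in every library, which is not read as a level. In cells 60 of the 68 were tested and 0 passed at either dose. At the lower dose 51 of the 60 (85%) were below 0, against 54.4% of all genes, with a median of −0.06, among them 21 of 22 antiviral effectors and 6 of 6 transcription factors. At the higher dose 38 of 60 (63.3%) were below 0, against 50.2% of all genes, with a median of −0.04 and 16 of 22 antiviral effectors. In edgeR 1 of the 60 had an unadjusted p under 0.05 at the lower dose and 8 at the higher. All 60 were measured in the same 6 cultures against the same controls, so their signs are not separate observations. These shares are a description only. In EVs 33 were tested and 0 passed at either dose, and for the ratio 62 were tested and 0 passed. Median differences in EVs were 0.07 at both doses.

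Most members differed between cultures in cells. There 7 of the 8 members tested differed among the 6 cultures, which 68% of the 18725 genes tested also did, so the members' share is read against a high background. The 3 libraries of a culture, 1 at each dose, served as its replicates. The F statistics, over 5 degrees of freedom, were 34.2 for Bst2 (adjusted p = 2.86e-06), 23.2 for Irf1 (1.86e-05), 11.8 for Ifit3 (adjusted p = 0.000459) and 10.5 for Irf9 (adjusted p = 0.000778). Bst2 averaged 0.202 CPM in 3F and 0.237 in 4M, and between 0.700 and 1.04 CPM in the other 4 cultures. Irf1 averaged 8.77 ± 1.90 CPM in 5F and 6.90 ± 1.00 in 4M (n = 3 doses), against 2.61 ± 0.224 in 4F. Ifit3 averaged 0.0606 CPM in 3F and 0.812 CPM in 5M. Nmi was the exception, with culture means from 3.27 to 4.39 CPM and F = 1.31 (adjusted p = 0.349), although scaling by library totals gave it an adjusted p = 0.024.

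By its mean over doses, culture 3F was the lowest for Isg15 (0 or 1 read per cell library), Ifit3 (1 to 4 reads), Oasl2 (1 to 7 reads) and Bst2 (5 to 11 reads). Its Nmi, Irf1 and Irf9 were within the range of the other cultures. Isg15 passed at adjusted p = 0.0399 and Oasl2 at 0.0184 over all cultures. Without pregnancy 3 they were at adjusted p = 0.486 and 0.397, and without pregnancy 5 at 0.101 and 0.0654. Without pregnancy 4 Isg15 did not pass the filter and Oasl2 passed the test. Irf7 passed at 0.0424 and did not pass without any of the pregnancies (adjusted p of 0.0725, 0.190 and 0.131 without 3, 4 and 5), nor with DESeq2 (0.172), library totals (0.0858) or no filter (0.0761). Of the markers of other cell types, those of microglia summed to 1.02 to 1.48 CPM in its cells and 0.898 to 1.46 CPM in the other cultures. Fibroblast markers, mostly Pdgfra, were at 10.5 to 12.7 CPM in 3F against 5.77 to 47.8 CPM in the others. The part of either sum in these differences was not tested.

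**Figure D4:**
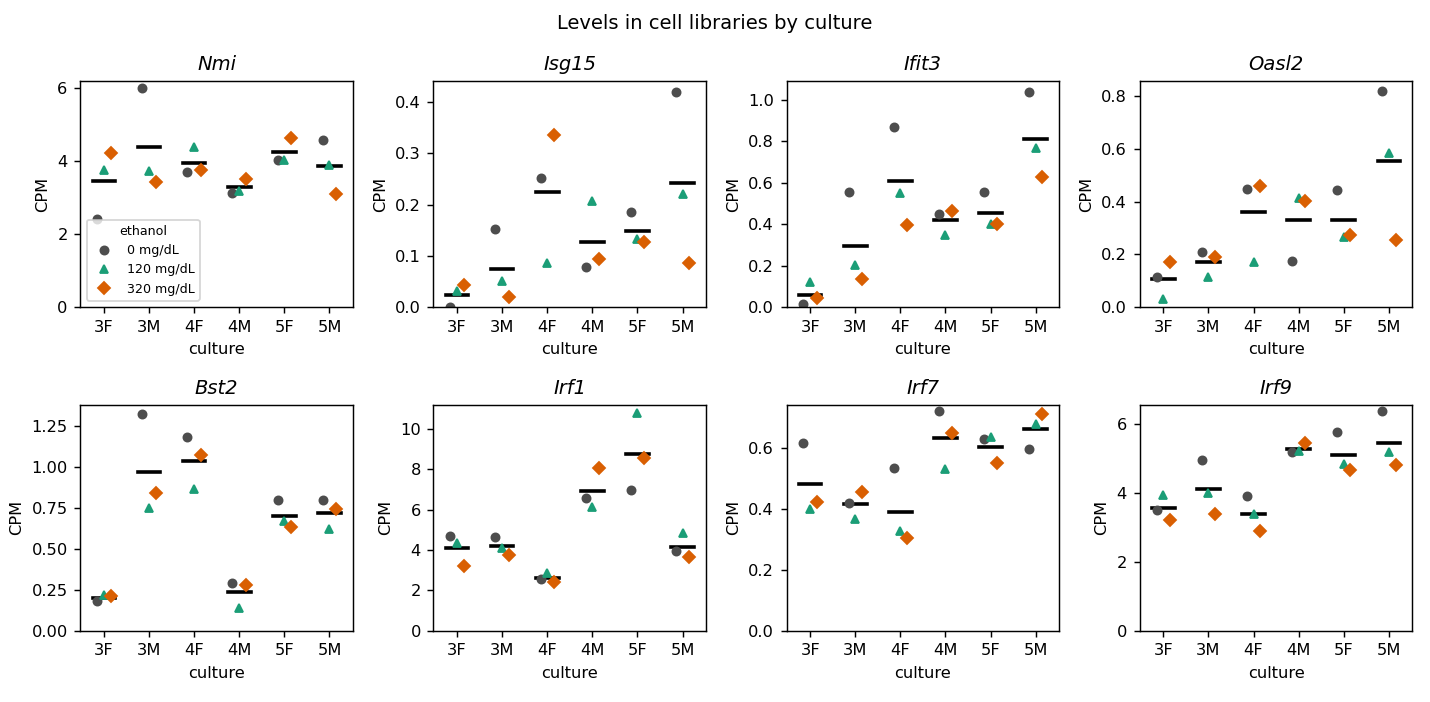
CPM of 8 members in the cell libraries of the 6 cultures, with a symbol for each ethanol dose and a bar for the mean of the 3 doses. Isg15, Ifit3 and Oasl2 are lowest in 3F, Bst2 is low in 3F and 4M, Irf1 is highest in 5F, and the culture means of Nmi run from 3.27 to 4.39 CPM.

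Some members went up and down together across the 18 cell libraries. As a description, the Pearson correlation of log2 CPM was 0.845 between Isg15 and Ifit3, 0.801 between Isg15 and Oasl2 and 0.679 between Ifit3 and Oasl2. It was 0.695 between Irf7 and Irf9, and −0.00594 between Nmi and Irf1. Over the 13234 genes with a mean of at least 1 CPM, the genes most like Nmi were Tmem242 (r = 0.899), Hsbp1 (0.884), Bloc1s5 (0.880), Sccpdh (0.873) and Mien1 (0.859), none of them a member. The genes most like Isg15 were Ppp1cb (0.877), Mob4 (0.872), Chmp4b (0.868), Fyttd1 (0.867) and Yipf4 (0.858). The 18 libraries come from 6 cultures at 3 doses, so the points are not independent, and the low counts of Isg15 share the depth of the library.

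Of the other pathway genes in cells 52 of 60 differed between cultures, where 68% of all genes did, with the largest F for Jak2 (122), a receptor kinase, Cgas (78.6), the cytosolic DNA sensor, and Ifitm3 (72.9), a membrane protein that blocks viral entry. Jak2 averaged 119 to 143 CPM in 4M, 5F and 5M and 50.7 to 60.6 CPM in 3F, 3M and 4F. Cgas averaged 8.15 CPM in 3F and 1.73 CPM in 5M, and Ifitm3 ran from 0.162 CPM in 5F to 7.33 CPM in 3M. In EVs neither Nmi (F = 2.78, adjusted p = 0.145) nor Irf9 (F = 0.955, adjusted p = 0.534) differed between cultures, where 50.3% of 13193 genes did. Of 33 other pathway genes tested there, 16 passed, led by Nlrc5 (F = 12.5), Ifnar2 (F = 12.4) and Trim25 (F = 10.6). Nlrc5 and Trim25 did not pass without pregnancy 5 (F = 4.22 and 4.79), nor Ifnar2 without pregnancy 4 (F = 1.79).

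Of the 9 members, 4 (Nmi, Irf1, Irf9 and Bst2) made up a smaller share of EV RNA than of cell RNA. Oasl2 had a larger one in the main fit, on EV counts near the floor. Of the 6 members tested 5 passed, as did 81.8% of all genes, and 4 of them were lower in EVs (43.7% of 17758 genes tested were) and 1 was higher (38.1%). The 36 libraries, from 6 cultures, enter these edgeR tests as if independent and unpaired, so p does not measure the spread between cultures. With both libraries of a culture and dose as a block, Nmi, Irf1, Irf9 and Bst2 stayed lower in EVs (edgeR adjusted p of 2.15e-05 or lower). That fit still takes the doses of a culture as independent. Nmi was at 3.86 ± 0.774 CPM in cells and 1.96 ± 0.857 CPM in EVs (n = 18 each), which is a log2 fold change of −1.0 ± 0.17 (SE, with an adjusted p = 1.18e-06). Irf1 was at 5.11 ± 2.29 and 1.35 ± 0.768 CPM (−1.93 ± 0.24, adjusted p = 2.65e-09), and Irf9 at 4.49 ± 0.988 and 2.04 ± 1.21 CPM (−1.19 ± 0.20, adjusted p = 1.24e-06). Bst2 was at 0.644 ± 0.358 and 0.138 ± 0.198 CPM (−2.12 ± 0.53, adjusted p = 0.000489). With the control libraries alone Bst2 was at adjusted p = 0.0549. Cells and EVs overlapped in single libraries for each of these 4 genes. The summed microglia markers had medians of 1.10 CPM in cells and 7.12 CPM in EVs and the endothelial markers 3.23 and 6.73 CPM, and their part in these differences was not tested. In EVs the microglia markers were mostly at or near the counting floor.

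Oasl2 went the other way, at 0.308 ± 0.196 CPM in cells and 0.742 ± 0.703 CPM in EVs, a log2 fold change of 0.93 ± 0.42 (adjusted p = 0.0429). That EV level rested on 0 to 4 reads per library (median 1), with more than 3 reads in 1 of 18. Oasl2 passed the filter on low counts mainly through EV libraries, where it was high, so nothing is concluded from its call. The call was lost when both libraries of a culture and dose formed a block (0.73 ± 0.40, adjusted p = 0.0897), without a filter (0.59 ± 0.41, adjusted p = 0.199), in the control libraries alone (1.08 ± 0.68, adjusted p = 0.172) and without any 1 of pregnancies 3, 4 and 5 (adjusted p of 0.169, 0.0635 and 0.0616). Irf7, at 0.531 ± 0.133 and 0.545 ± 0.496 CPM, had −0.13 ± 0.28 (adjusted p = 0.672). Ifit3 and Isg15 did not pass the filter on low counts. With the block Ifit3 was tested and was lower in EVs (−1.30 ± 0.48, adjusted p = 0.0146).

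The values between EVs and cells moved with the scaling. With TMM 6766 genes were higher in EVs and 7761 lower, with median-of-ratios factors 8142 and 6289, and with library totals 5219 and 9543. The log2 fold changes of all genes had a median of −0.14 with TMM, 0.22 with median-of-ratios factors and −0.65 with library totals. Nmi was at −1.0, −0.65 and −1.54 under these scalings, Irf7 at −0.13, 0.20 and −0.66 (adjusted p = 0.0416 in the last), and Oasl2 at 0.93, 1.29 and 0.43 (adjusted p = 0.33 in the last). Relative to the median of all genes, Nmi was at −0.87, −0.87 and −0.89, Irf1 at −1.80, −1.82 and −1.81, and Oasl2 at 1.07 each time. Irf7 lay within 0.02 of that median under these 3 scalings. With both libraries of a culture and dose as a block, where the median was 0.15, Nmi was at −1.44, Irf7 at −0.58 and Oasl2 at 0.58 relative to it.

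**Figure D5:**
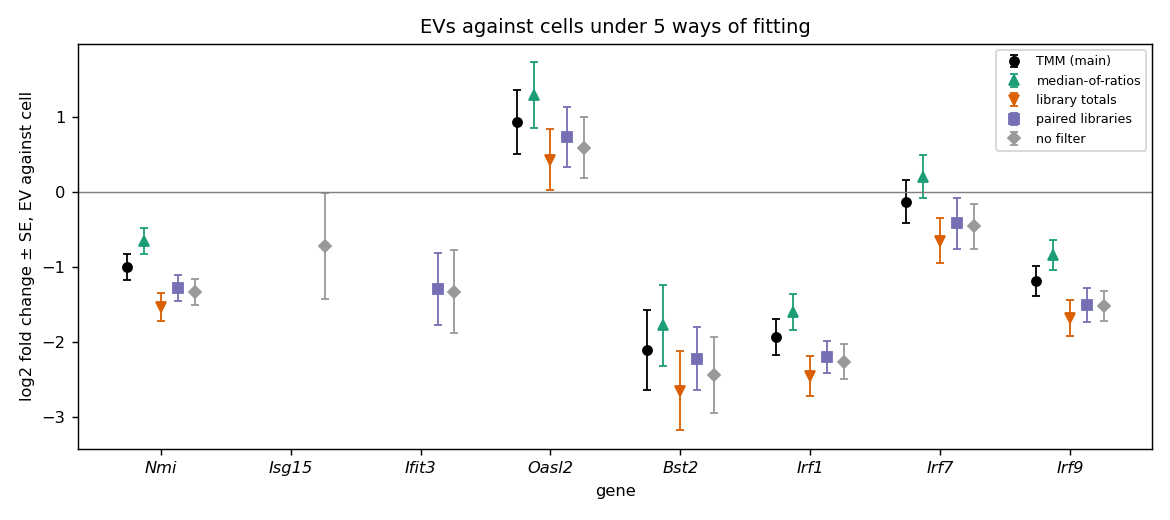
Log2 fold change ± SE of EVs against cells for 8 members under 5 ways of fitting (TMM, median-of-ratios factors, library totals, paired libraries and no filter on low counts). Nmi, Bst2, Irf1 and Irf9 lie below 0 and Oasl2 above 0 under all 5, Irf7 changes sign with the scaling, and Isg15 and Ifit3 have no point where they did not pass the filter.

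Of 56 other pathway genes tested between EVs and cells, 40 (71.4%) passed, where 81.8% of all genes did, 11 higher and 29 lower in EVs, with a median of −0.49. The highest were Nlrc5, an activator of antigen presentation genes (3.71 ± 0.30 SE, 49.1 ± 40.6 CPM in EVs and 3.75 ± 1.17 CPM in cells), Trim25, a ubiquitin ligase of RNA sensing (2.82 ± 0.30), and Oas2, an oligoadenylate synthetase (2.47 ± 0.40). Oas2 had 0 to 4 reads per EV library (median 1) and 1 to 10 per cell library. It passed the filter through its EV libraries, so its value lies at the counting floor and is not read as a level. The lowest were Gbp2, an interferon-induced GTPase (−3.97 ± 0.25, 2.68 ± 1.64 CPM in EVs and 44.5 ± 20.5 CPM in cells), Ifngr1, a receptor chain for interferon gamma (−3.06 ± 0.13), and Socs3, a feedback inhibitor of JAK kinases (−2.86 ± 0.45). The 4 inhibitors tested were lower in EVs, where 43.7% of all genes were.

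Between the sexes 0 of the 7 members tested in cells passed, where 5.7% of 18048 genes did (2.51% lower in females). By TMM 576 genes were higher in females and 453 lower, and by library totals 354 and 738. Their log2 fold changes of female against male ran from −0.41 ± 0.43 (SE) for Oasl2 to 0.03 ± 0.30 for Irf1, and Nmi was at 0.02 ± 0.16 (adjusted p = 0.961). Irf9 was at −0.29 ± 0.14 (adjusted p = 0.224), and with the pregnancy as a block it was lower in females (−0.31 ± 0.10, adjusted p = 0.049). With counts summed over the doses of a culture Irf9 did not pass (−0.33 ± 0.26, adjusted p = 0.872). In EVs only Irf9 was tested (−0.06 ± 0.44, adjusted p = 0.951), where 12% of 12252 genes passed (7.59% higher in females), 930 higher and 545 lower by TMM and 417 and 43 by library totals. Of the other pathway genes, Tapbp (−0.71 ± 0.19), Dtx3l (−0.52 ± 0.15) and Parp9 (−0.47 ± 0.13) led the 4 of 58 that were lower in female cells, the fourth being Pias1 (−0.41 ± 0.11), named after its value was seen, and Ifnar2 (1.10 ± 0.33) and Ptpn2 (0.67 ± 0.20) were the 2 of 30 that were higher in female EVs. The 3 libraries of each culture enter these tests as if they were separate cultures, which makes p too small. With counts summed over doses the first 3, Ifnar2 and Ptpn2 did not pass, and each also lost its call without 1 or more of the pregnancies: without pregnancy 4, Ifnar2 was at 0.33 and Ptpn2 at 0.35, and without pregnancy 3, Tapbp was at −0.58, Dtx3l at −0.37 and Parp9 at −0.39.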

How the data were processed

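RNA was sequenced in 18 EV and 18 cell libraries. Per the labels and the paper's methods, libraries were stranded and made after depletion of ribosomal RNA. Reads were deduplicated, trimmed with Trimmomatic, aligned to mm39 with STAR and counted per gene with HTSeq. The authors deposited raw counts, 1 file per library, and these were used unchanged. Library totals set the precision: EV libraries hold fewer counts than cell libraries, so low genes there carry a large counting error.

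Tests were run with edgeR 4.0.16 under R 4.3.3, using filterByExpr (minimum count 10, minimum total 15), TMM, quasi-likelihood F tests and Benjamini-Hochberg adjustment over all genes tested, with a threshold of 0.05. Doses were compared with the culture as a block. The EV:cell ratio was tested as the interaction of location and dose with the pair of libraries as a block and a location by culture term. The comparison of EVs with cells had sex and dose as terms, and those of sexes and of cultures had dose. Single members were also tested by exact sign changes of differences in log2(CPM + 1) over the 6 cultures, over 45 tests; p-values measure the spread between these cultures or libraries. DESeq2 1.42.0, other scalings, no filter, other blocks and leaving out each pregnancy were the alternatives. The tests were tested on simulated data. Figures were drawn with Python 3.11.15 and matplotlib 3.10.9.

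Replicate numbers in the labels mark a shared pregnancy, and the libraries of a culture come from the same tissue pool, so they pair the samples. The median correlation of a culture's deviations from the group means between a dose and its control was 0.617 in cells and 0.418 in EVs. It was 0.0653 between EVs and the cells they came from, −0.0996 between the female and male cells of a pregnancy and −0.274 between their EVs. Members and gene lists were chosen with earlier results of these data known. Text names all members; of the other pathway genes it names those past the threshold for ethanol and the ratio, and elsewhere up to 3 with the largest change in each direction or largest F, and the 5 genes most correlated with Nmi and with Isg15 in cells. Gene positions come from GENCODE on GRCm39 by symbol. Rigi (its older name Ddx58 was present), Oas1b, Mx1 and Mx2 were not found by symbol and were not analysed here.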

Additional observations from a re-analysis of the deposited data

Results flagged for a closer look

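Among 51 groups of 6 cultures (a detected member in EVs or cells at 1 dose, and the ratio of Nmi), 5 had a culture that stood far from the other 5 cultures. The gap was judged by Dixon's Q, which flags about 1 in 20 groups by chance when values are normally distributed. Many values here rest on few reads, so that rate need not hold. It does not hold for the 3 EV groups in which 1 read sets the gap, and no cause was tested. Isg15 in cells at 320 mg/dL was at 0.336 CPM in 4F (11 reads), against a median of 0.0892 CPM. Oasl2 in EVs at 120 mg/dL was at 2.62 CPM in 4F, on 3 reads in a library of 0.975 M counts (M is 1e6). In 3 EV groups a single culture had reads while the others were at 0. Ifit3 at 120 mg/dL was at 0.278 CPM in 5F (1 read). Isg15 was at 0.380 CPM in 5F without ethanol (1 read) and at 0.286 CPM in 4M at 320 mg/dL (1 read). In none of 32 ethanol contrasts of members within EVs or cells did all female cultures move one way and all male cultures the other. A contrast with a culture that did not change at all could not be flagged. This was so in EVs for Ifit3, Isg15 and Bst2 at both doses and for Irf7 at 320 mg/dL.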

How the results depend on the processing

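Apart from Nmi at 120 mg/dL, which was not tested, no member passed at either dose, in EVs, cells or the ratio, under any edgeR or DESeq2 alternative. DESeq2 gave members no adjusted p in EVs or for the ratio at 320 mg/dL. The number of genes past the threshold over the whole table was less steady. At 120 mg/dL in EVs it was 13 with DESeq2, 5 with library totals, 157 without a filter, 0 with the compared doses alone and 0 to 6 without single pregnancies, against 1. At 320 mg/dL in EVs it was 267 with DESeq2, 207 without a filter, 0 without the replicate block or with the compared doses alone and 0 to 62 without single pregnancies, against 10. In cells DESeq2 gave 4 and 94 genes, and leaving out pregnancies 0 to 2 and 0 to 1, against 0. For the ratio at 120 mg/dL it was 56 with library totals, 56 without a filter, 1 with no replicate block and 1 to 45 without single pregnancies, against 2. At 320 mg/dL it was 60 with DESeq2, 41 with library totals, 67 without a filter and 0 to 69 without single pregnancies, against 0. EVs against cells gave 23256 with DESeq2 and 22029 without a filter, which also test more genes, against 14527. Females against males in EVs gave 2789 with DESeq2, 460 with library totals, 3738 with the replicate block of pregnancy, 0 with counts summed over doses and 3 to 3477 without single pregnancies, against 1475. In cells they gave 2071 with DESeq2, 3091 with the block, 7 with summed counts and 216 to 2063 without single pregnancies, against 1029. Between cultures in EVs 3037 to 6448 passed without single pregnancies, against 6632. Library totals gave 3 exact tests of single members at p of 0.05 or lower (Irf9 in cells at both doses and Bst2 in cells at 320 mg/dL), against 0 of 45. The causes were not tested.

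Members past the threshold had 93 values under alternatives, of which 18 did not pass. Members not past it had 341, of which 3 passed and 50 had the other sign. F statistics between cultures have no sign, so only the other values could change it. For the members past the threshold those were the values between EVs and cells, and 0 changed sign. The replicate block changed the calls of Oasl2 and Ifit3 between EVs and cells and of Irf9 between sexes, and changed no other call of a member. At 0 to 12 reads per EV library, changes of the members in EVs were mostly not detectable.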
